A study of Mus musculus with 2 samples.

Results

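The genes that carry glucose into the cell, break it down to pyruvate and lactate, or divert it into the pentose phosphate pathway were compared between tumour-bearing mouse lungs of 2 kinds. The set holds 38 genes chosen by name, of 18193 genes that the arrays read by at least 1 probe set specific to them. Of the 38, 35 had such a probe set, 33 passed the intensity floor on both arrays and Fbp1 passed it in the vector control only. The floor is the median intensity of an array, which was 26.3 for the vector control and 24.3 for the TDAG8 array. Gpi1, Eno1 and G6pdx were not analysed here, and Eno2 was below the floor on both arrays. The 35 genes were read by 70 probe sets, of which 59 passed the floor on both arrays.

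Whole lungs of C57BL/6 mice, aged 6 to 8 weeks when injected, were taken on day 19 after 500000 Lewis lung carcinoma (LLC) cells in 200 µL had been given by tail vein injection. The line, a mouse lung carcinoma, grows in the lung after such an injection. The injected cells had been transfected with an empty vector (the vector control group) or overexpressed TDAG8, the proton-sensing receptor encoded by Gpr65. In each group the RNA of 10 mice was pooled and measured on 1 Affymetrix array, so no value has an error, no test was possible and each difference describes these 2 pools only. Both groups carried tumour cells, and lungs without tumour cells were not analysed here. The host mice keep their own Gpr65, and no source used here gives the species of the transfected sequence or the number of clones. In whole-lung RNA, fewer cells of a type and less RNA per cell cannot be told apart, nor can RNA of the tumour and RNA of the host.

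Both arrays read lung. All 7 measured alveolar type 2 markers, including the surfactant protein gene Sftpc at 7476 and 6605, and all 8 alveolar type 1 markers were above the floor in both groups. Gpr65 read 32.3 with the vector control and 73.9 with TDAG8, a dim reading on both arrays. The 12 spike control probe sets that passed the floor had log2 ratios between -0.13 and 0.15. Across the 4775 genes with several probe sets that passed the floor on both arrays, log2 ratios differed between probe sets of 1 gene with an SD of 0.27, a spread between probes and not between animals.

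Glucose enters most cells through the facilitative transporters of the Slc2a family and is trapped by hexokinase as glucose 6-phosphate. Glycolysis then turns it into pyruvate, which lactate dehydrogenase reduces to lactate for export by the monocarboxylate transporters, or which pyruvate dehydrogenase passes to the mitochondrion. The pentose phosphate pathway takes glucose 6-phosphate to make NADPH and ribose for nucleotides. Tumours are known for high glucose uptake and lactate release in the presence of oxygen, and they tend to use particular isoforms, such as Hk2, Ldha and Pdk1. Several of these genes are known targets of the oxygen-regulated factor HIF-1 and of Myc.

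The highest values relative to the vector control were those of Slc2a1, Slc16a3, Tpi1, Pgk1, Pkm, Pgam1 and Slc16a1, in that order. They belong to glucose entry, the triose steps of glycolysis and lactate transport. Other genes of these steps, such as Slc2a3 and Pgam2, ranked lower. Of the 34 measured genes 11 were at least 2-fold higher in the TDAG8 array, which is 32.4%, and 0 were lower by as much. Among all 11949 genes measured, the corresponding shares were 5.41% and 1.19%. The log2 ratio (TDAG8 over vector control), centred on the median gene, was above 0 for 24 of the 34, or 70.6%, against 49.9% of all genes. The median log2 ratio was 0.53, and over the 33 genes read on both arrays the ratios ran from -0.85 for Pdk2 to 2.00 for Slc2a1, while the centring sets the median of all genes near 0. The 11 genes were Slc2a1, Hk2, Hk3, Tpi1, Pgk1, Pgam1, Pkm, Ldha, Slc16a1, Slc16a3 and Pdk1. With only plain probe sets, whose names lack _a, _s or _x, 22 genes were measured and 7 were at least 2-fold higher. Tpi1, Pgam1 and Ldha had no plain probe set, and Hk3 had a log2 ratio of 0.90. Across the 33 genes read on both arrays, which share these arrays and are no replicates, the log2 ratio had a Spearman rho of 0.39 with the mean log2 intensity.

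**Figure D1:**
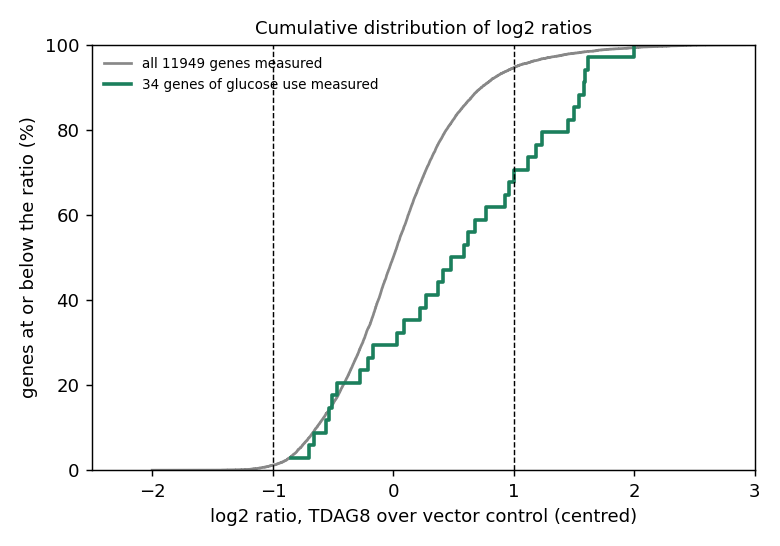
Cumulative share of genes (%, vertical axis) by log2 ratio of TDAG8 over vector control (horizontal axis) for all 11949 genes measured (grey) and the 34 genes of glucose use (green), with 2-fold marked by dashed lines. The green curve lies to the right of the grey one above a log2 ratio of 0, and 11 of its 34 genes lie past the right dashed line and 0 past the left one.

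Promoter sequence of 6 genes at least 2-fold higher and of Ldhb is shown because the letters ACGTG, part of the elements that HIF-1 and Myc are known to bind, can be looked for in it. The 250 bases before the first listed start of each gene were read from the RefSeq promoter table of build GRCm38.p6, which held 37 of the 38 genes. The windows are chr4:119108495-119108744 (plus strand) for the glucose transporter gene Slc2a1, chr11:120948817-120949066 (plus strand) for the lactate exporter gene Slc16a3 and chr3:104638414-104638663 (plus strand) for the lactate transporter gene Slc16a1. For the glycolytic genes they are chrX:106186850-106187099 (plus strand) for Pgk1 and chr6:124814159-124814408 (minus strand) for Tpi1. Ldha and Ldhb, the lactate dehydrogenase subunit genes that differed in opposite directions, are at chr7:46845554-46845803 (plus strand) and chr6:142507958-142508207 (minus strand). Capitals mark ACGTG or its reverse complement CACGT, which overlap in CACGTG.
Slc2a1: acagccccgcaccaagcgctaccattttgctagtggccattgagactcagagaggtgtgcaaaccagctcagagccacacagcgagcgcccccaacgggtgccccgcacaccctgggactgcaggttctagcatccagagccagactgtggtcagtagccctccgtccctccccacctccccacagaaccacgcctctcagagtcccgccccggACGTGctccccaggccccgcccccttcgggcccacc
Slc16a3: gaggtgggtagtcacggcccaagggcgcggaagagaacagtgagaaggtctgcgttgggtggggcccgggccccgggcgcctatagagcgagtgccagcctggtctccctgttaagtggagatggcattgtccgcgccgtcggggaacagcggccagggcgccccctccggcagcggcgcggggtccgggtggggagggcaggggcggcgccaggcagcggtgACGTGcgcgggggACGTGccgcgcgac
Slc16a1: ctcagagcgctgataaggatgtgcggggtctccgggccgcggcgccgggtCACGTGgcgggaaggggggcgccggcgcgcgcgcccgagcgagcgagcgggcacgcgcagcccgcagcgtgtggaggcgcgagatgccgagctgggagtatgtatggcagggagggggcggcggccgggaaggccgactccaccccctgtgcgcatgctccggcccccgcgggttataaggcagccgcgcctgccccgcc
Pgk1: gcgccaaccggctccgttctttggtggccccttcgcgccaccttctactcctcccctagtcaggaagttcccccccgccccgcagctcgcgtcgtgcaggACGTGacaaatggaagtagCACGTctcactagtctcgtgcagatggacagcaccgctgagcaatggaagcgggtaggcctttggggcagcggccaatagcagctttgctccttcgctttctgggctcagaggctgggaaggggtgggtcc
Tpi1: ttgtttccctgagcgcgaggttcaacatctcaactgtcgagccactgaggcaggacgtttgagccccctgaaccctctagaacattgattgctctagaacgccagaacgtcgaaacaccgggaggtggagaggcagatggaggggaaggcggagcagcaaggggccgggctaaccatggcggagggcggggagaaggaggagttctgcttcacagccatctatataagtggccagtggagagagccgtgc
Ldha: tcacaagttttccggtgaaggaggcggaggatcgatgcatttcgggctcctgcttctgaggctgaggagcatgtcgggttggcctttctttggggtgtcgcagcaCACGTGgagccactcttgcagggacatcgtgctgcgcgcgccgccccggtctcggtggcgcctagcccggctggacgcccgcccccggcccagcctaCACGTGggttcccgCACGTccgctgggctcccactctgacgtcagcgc
Ldhb: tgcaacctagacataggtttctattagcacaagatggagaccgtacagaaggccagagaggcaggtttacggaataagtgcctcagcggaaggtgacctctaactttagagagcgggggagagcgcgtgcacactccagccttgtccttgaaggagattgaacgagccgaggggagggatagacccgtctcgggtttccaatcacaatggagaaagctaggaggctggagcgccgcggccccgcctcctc
The Ldha window held 5 matches counted over both strands, the Slc16a3, Slc16a1 and Pgk1 windows held 2 each and the Slc2a1 window 1. Neither the Tpi1 nor the Ldhb window held a match. Of the 11 genes at least 2-fold higher 8 had a match, while among the other 22 measured genes for which the table had a window, 6 had one, against 16.6% of the windows of all 27025 genes in the table. The other form of the HIF-1 core, GCGTG, searched on both strands in the same windows, ran the other way, with a match in 4 of the 11 and 14 of the 22 genes and in 28.2% of all windows. The median GC content was 66.4% in the 11 windows, 58.0% in the 22 and 52.0% in all, and its part in these counts was not tested. The genes shown and the letters searched were chosen after the ratios were seen. Pkm and Pgam1 had higher ratios than Slc16a1 and Ldha but are not shown. The Pkm window held 0 matches and the Pgam1 window 1. A match describes the letters in a window and no site.

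Of the 5 genes of glucose entry and trapping, Slc2a1, Hk2 and Hk3 were at least 2-fold higher, and Slc2a3 and Hk1 were not. Slc2a1, which encodes the widely expressed transporter GLUT1, went from an intensity of 197 in the vector control to 754 with TDAG8, 3.99-fold higher. Its other probe sets went from 133 to 438 and from 108 to 377, so its 3 probe sets read 3.43-fold to 3.99-fold higher. Slc2a3, the gene of the high-affinity transporter GLUT3 of neurons and leukocytes, went from 99.5 to 144, a log2 ratio of 0.59. Another of its probe sets, near the floor, gave 0.27 and the remaining pair was below the floor. Hk2, the hexokinase of insulin-sensitive tissue and of many tumours, went from 202 to 454, 2.35-fold higher. Hk1, the widely expressed hexokinase, went from 282.5 to 433, a log2 ratio of 0.67, and its other probe set gave 0.78. Hk3, a hexokinase of myeloid cells, went from 59.9 to 131, 2.27-fold higher, while its other probe set gave 1.83-fold. In the macrophage list 7 of 10 genes had log2 ratios above 0, 5 of them by 2-fold or more, against 5.41% of all genes measured. None was below the floor on both arrays, and the summed intensity of the list was 9136 and 9379.6 on the 2 arrays, mostly from Lyz2 at 6650 and 6002. Of 6 measured neutrophil markers 0 were at least 2-fold different, with sums of 2318 and 2207 and Lcn2 the brightest, and Cxcr2, Camp and Ngp were below the floor. The part of leukocyte numbers in the Hk3 value was not tested.

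The hexose phosphate steps were mixed, with a median log2 ratio of 0.03 over 7 genes (-0.03 without centring) and 0 of them at least 2-fold different. Phosphofructokinase commits sugar to glycolysis and has 3 subunit genes. The liver-type Pfkl went from 275.5 to 515, a log2 ratio of 0.96, and another probe set gave 0.95. The platelet-type Pfkp went from 198 to 362, a log2 ratio of 0.93, and another probe set gave 0.82. Both lay just short of 2-fold. The muscle-type Pfkm was at 117 and 115, a log2 ratio of 0.03. Pfkfb3 and Pfkfb4 make fructose 2,6-bisphosphate, the activator of phosphofructokinase, and both are known to be induced by low oxygen. Pfkfb3 went from 311 to 210.3 and Pfkfb4 from 208 to 144, log2 ratios of -0.51 and -0.47, so both had lower values in the TDAG8 array. Another probe set of Pfkfb3 was at 58.8 and 57.9, a log2 ratio of 0.04. Aldoa, the aldolase of muscle and most growing cells, went from 1653 to 2112, a log2 ratio of 0.41. Of its other 4 probe sets 3 gave 0.44 to 0.55 and 1 gave -0.23. Aldoc, the aldolase of brain, went from 83.3 to 49.3, a log2 ratio of -0.70.

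Of the 6 genes measured at the triose steps, 4 were about 3-fold higher. The enzymes here turn the 3-carbon sugars into pyruvate and recover the ATP. Tpi1, the isomerase that interconverts the triose phosphates, went from 685 to 1980.2, 3.01-fold higher, and its 3 probe sets lay between 2.99-fold and 3.24-fold. Pgk1, the first ATP-making kinase of the pathway, went from 881 to 2538, 3.0-fold higher. Its other probe sets gave 2.87-fold and 5.34-fold, the latter from a dimmer reading of 247 and 1266. Pgam1, the widely expressed phosphoglycerate mutase, went from 469 to 1277, 2.83-fold higher. Pkm, which encodes the pyruvate kinases M1 and M2, went from 806 to 2252, 2.91-fold higher, and its single probe set does not tell the splice forms apart. The muscle isoform genes stood elsewhere: Pgam2 went from 51.3 to 43.8, a log2 ratio of -0.17, and Eno3, the muscle enolase, from 182 to 211, a log2 ratio of 0.27. Eno2, the enolase of neurons, was at 21.6 and 15.2, below the floor. Of the 10 cardiac and skeletal muscle markers 8 had log2 ratios below 0, with a median of -0.66 and summed intensities of 5312 and 3262.5, Actc1 being the brightest, and none was below the floor on both arrays. The part of muscle RNA in the values of the muscle isoforms was not tested.

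**Figure D2:**
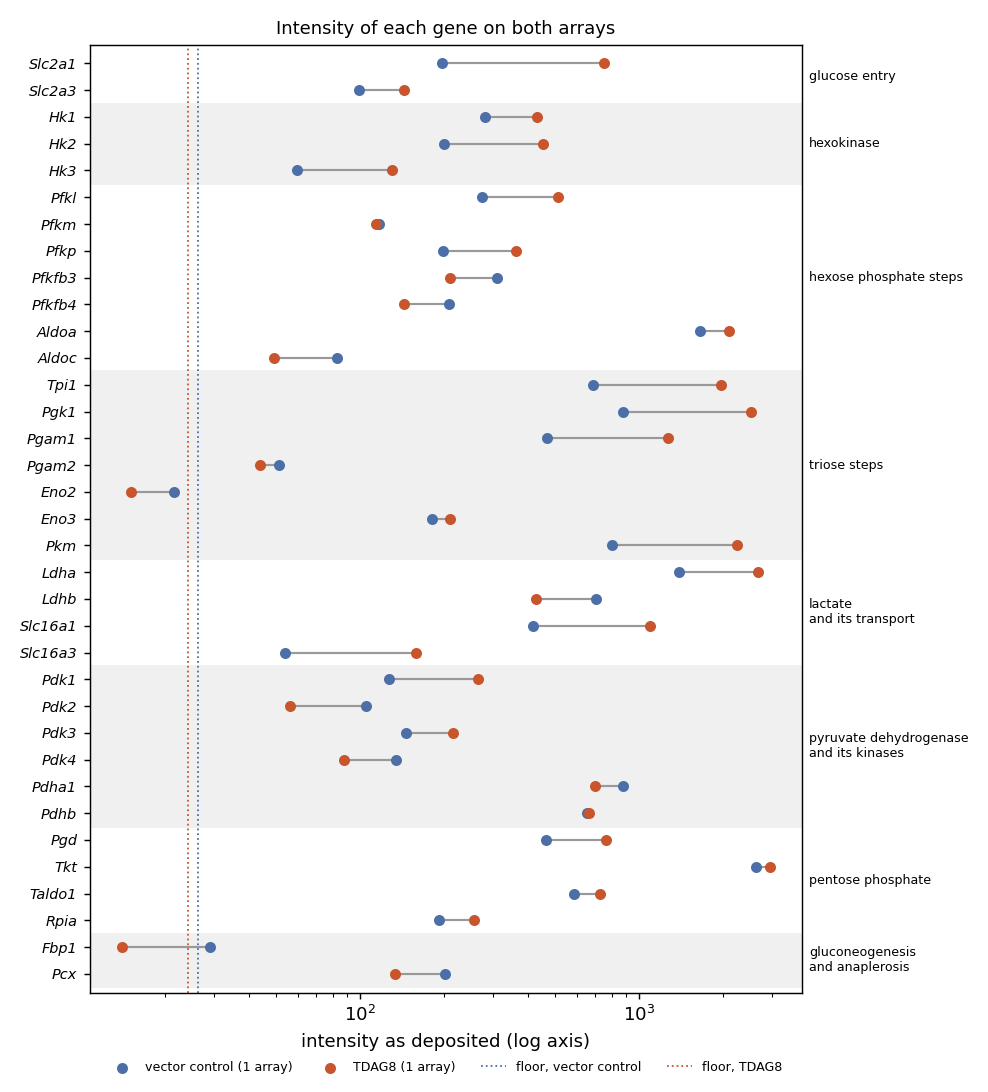
Intensity as deposited (horizontal log axis) of the probe set that stands for each gene, in the vector control array (blue) and the TDAG8 array (orange), by step of the pathway, with each array's floor as a dotted line. Tpi1, Pgk1, Pgam1 and Pkm show the widest gaps among the triose steps, and for Ldhb, Pdk2, Pdk4, Aldoc and Pcx, among others, the orange point lies to the left.

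At the lactate step the subunit genes differed in opposite directions. Ldha encodes the subunit that favours making lactate, and its intensity went from 1392 to 2678, just past the 2-fold limit. Its log2 ratio fell short of that limit in 5 of the 7 alternatives that measured it, the lowest value being 0.94 without centring. Ldhb, the subunit of heart and other oxidative tissue, went from 704 to 429.7, a log2 ratio of -0.65. All 4 probe sets of Ldhb were lower in the TDAG8 array, with log2 ratios from -0.94 to -0.65. The difference between the log2 ratios of Ldha and Ldhb was 1.66, a 3.15-fold change in their relative intensity. Slc16a1, the gene of the widely expressed lactate and proton carrier MCT1, went from 417 to 1097, 2.74-fold higher. Slc16a3, the gene of MCT4, the exporter of strongly glycolytic cells, went from 54.2 to 159.9, 3.07-fold higher. Each carrier was read above the floor by 1 probe set.

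Of the 6 genes at the entry of pyruvate into the mitochondrion 1, Pdk1, was at least 2-fold higher and 0 were lower. The pyruvate dehydrogenase kinases switch the complex off by phosphorylation. Pdk1, the isoform known to be induced by HIF-1, went from 128 to 266, 2.17-fold higher. Another probe set went from 89.4 to 171, just short of 2-fold, but a further one stayed at 85.9 and 83.0, a log2 ratio of 0.01, so the probe sets of Pdk1 disagreed. Pdk3 went from 146 to 215.5, a log2 ratio of 0.62. Pdk2, the widely expressed kinase of resting tissue, went from 106 to 56.4, a log2 ratio of -0.85. Pdk4, the kinase induced by fasting, went from 135 to 88.1, a log2 ratio of -0.56. The subunits of the dehydrogenase itself differed less: Pdha1 went from 881 to 698, a log2 ratio of -0.28, and Pdhb was at 654 and 666, a log2 ratio of 0.09. Another probe set of Pdha1 gave -0.02. Another of Pdhb was at 39.1 with the vector control and below the floor with TDAG8, at least 1.55-fold lower.

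**Figure D3:**
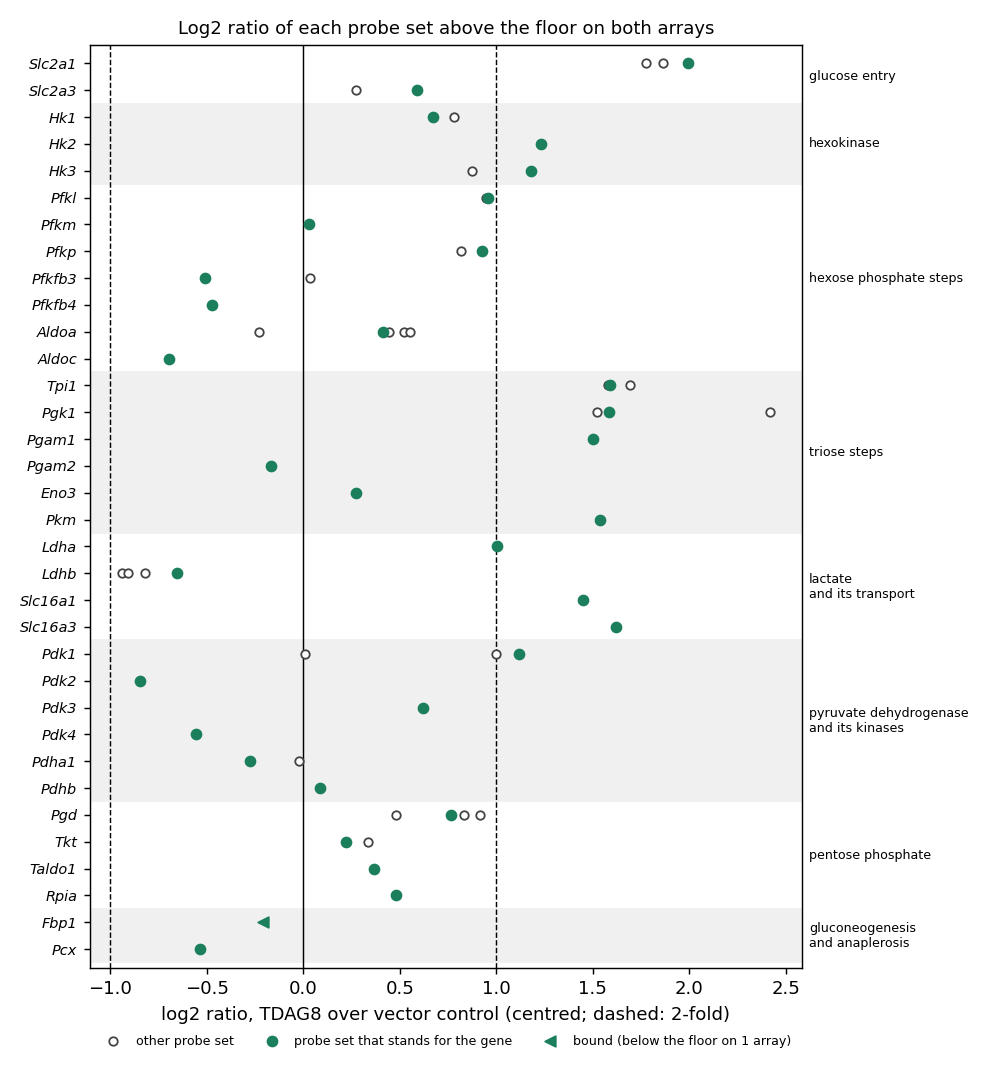
Log2 ratio, TDAG8 over vector control (horizontal axis), of each probe set that passed the floor on both arrays, by gene and step, with filled points for the probe set that stands for the gene, open points for the others and a triangle for the bound of Fbp1. Probe sets of Slc2a1, Tpi1 and Ldhb lie close together, while 1 probe set of Pdk1 is at 0.01 and 1 of Pgk1 at 2.42.

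The pentose phosphate genes were all above 0 and 0 of the 4 was 2-fold different, with a median log2 ratio of 0.42. Pgd, the dehydrogenase of the oxidative arm, which makes NADPH, went from 466 to 762, a log2 ratio of 0.77. Its 4 probe sets gave 0.48 to 0.92. The enzymes of the reversible arm, which link ribose 5-phosphate to glycolysis, had lower ratios. Tkt, the transketolase, went from 2631 to 2947, a log2 ratio of 0.22, and Taldo1, the transaldolase, from 585 to 725, a log2 ratio of 0.37. Rpia, the ribose phosphate isomerase, went from 192 to 257, a log2 ratio of 0.48. Of these 4 genes Tkt lay within the SD of 0.27 between probe sets.

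Of the members that run carbon the other way, Pcx and Fbp1 were read and 0 of the 2 was 2-fold different. Pcx, the carboxylase that makes oxaloacetate from pyruvate, went from 203 to 134, a log2 ratio of -0.54. Of the 4 control probe sets for Pcx, which were not used in any count, the one for the 3′ end went from 150.2 to 90.8, a log2 ratio of -0.67, while the other 3, dimmer, lay between -0.19 and -0.07. Fbp1, the fructose bisphosphatase of gluconeogenic tissue, was at 29.2 with the vector control and below the floor with TDAG8, at least 1.15-fold lower. Among gluconeogenic genes outside the set, log2 ratios were 0.41 for G6pc3, 0.07 for Pck2 and -0.26 for Pck1, and Fbp2, at 20.1 and 44.3, was below the floor in the vector control and at least 1.75-fold higher with TDAG8.

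Isoforms of 1 family were then set against each other by the difference of their log2 ratios, with the isoform listed as tumour type named first. That listing is a label, and the partners, such as Pfkfb3 and Slc16a1, may be used by tumours too. Of 13 such differences 12 were above 0, 6 of them by at least 2-fold, with a median of 0.90. The sign of each depends on which isoform was listed first, and the lists were chosen with earlier results of these data known. The count is therefore a description and no test. The 13 are not separate readings, since Pdk1, Hk2 and Pfkp each enter more than 1 of them. The difference was 1.96 for Pdk1 over Pdk2, 1.68 for Pdk1 over Pdk4, 1.67 for Pgam1 over Pgam2 and 1.66 for Ldha over Ldhb. With the mean over all probe sets, which disagree for Pdk1, the first pair fell to 1.36 and 1.08. It was 1.41 for Slc2a1 over Slc2a3 and 1.11 for Aldoa over Aldoc. Hk2 over Hk3, Pfkp over Pfkl, Pfkfb4 over Pfkfb3 and Slc16a3 over Slc16a1 differed by 0.05, -0.03, 0.04 and 0.17, each less than the SD of 0.27 between probe sets. All of these but Pfkp over Pfkl changed sign under at least 1 alternative. With the mean over all probe sets the Pdk1 over Pdk3 difference turned from 0.50 to -0.10.

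**Figure D4:**
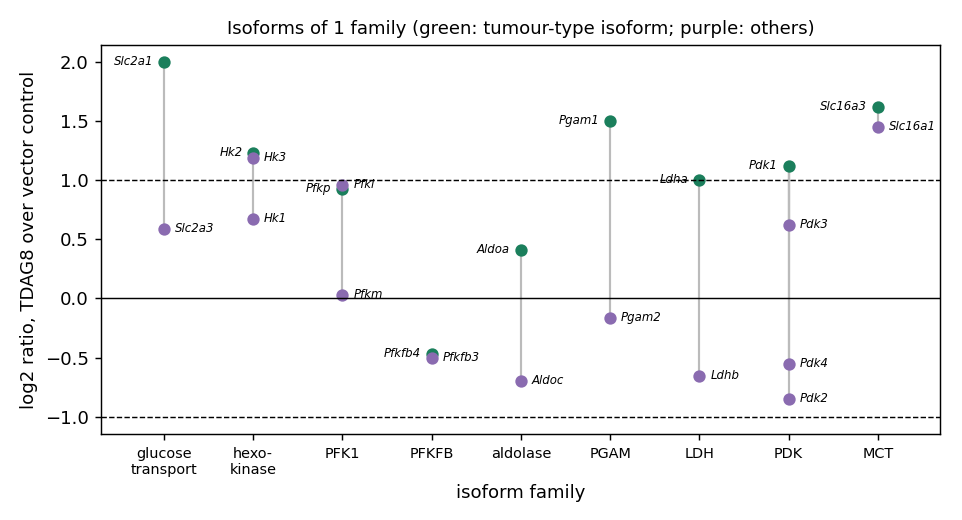
Log2 ratio of TDAG8 over vector control (vertical axis) of the isoforms of 9 families, with the isoform listed as tumour type in green, the others in purple and 2-fold as dashed lines. The isoforms of lactate dehydrogenase, phosphoglycerate mutase, aldolase and the PDK family lie on both sides of 0, whereas those of the monocarboxylate transporters (MCT), PFKFB and hexokinase lie on 1 side.

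Of 65 listed genes, among them Gapdh, genes of glycogen, fructose, pyruvate and pentose handling and further transporters, 48 were measured. Of the 48, 0 were 2-fold higher and 0 lower, against 5.41% and 1.19% of all genes measured. Gapdh was not among the 48, and its control probe sets gave log2 ratios of 0.89 to 1.12. The log2 ratios of the 48 genes were above 0 for 24 and below 0 for 24, with a median of -0.04. Among those read on both arrays the ends of the range were Emb, a chaperone of the lactate carriers, at 0.82 (801 and 1355) and the transporter gene Slc2a10 at -0.69 (42.9 and 25.6). H6pd, which makes NADPH in the endoplasmic reticulum, went from 653 to 398, a log2 ratio of -0.66, opposite in sign to Pgd. Pgls, the lactonase between the oxidative dehydrogenases, was at 0.58. Bsg, the main chaperone of MCT1 and MCT4, was at 1895 and 1905, a log2 ratio of 0.07 beside 1.45 and 1.62 for the carriers. Mpc1, of the mitochondrial pyruvate carrier, was at -0.25 and Dld, the shared dehydrogenase subunit of the pyruvate complex, at 0.71. Hkdc1, a gene related to the hexokinases, was at -0.18, and the liver and red cell pyruvate kinase gene Pklr was below the floor. The genes named here were chosen after their values were seen.

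Proliferation markers were higher in the TDAG8 array. All 9 measured proliferation markers passed 2-fold, against 5.41% of all genes measured, with a median of 2.30 on the log2 scale. The sums of their intensities were 964 and 4272, Top2a being the brightest. All 8 endothelial, all 8 airway, all 8 alveolar type 1 and all 7 alveolar type 2 markers had log2 ratios below 0, with medians of -0.69, -0.79, -0.56 and -0.50, except that 1 airway marker was above 0 after quantile normalization. Of these 31 markers 2, both airway and both below the floor with TDAG8, were at least 2-fold lower, against 1.19% of all genes measured. Their summed intensities were 5887 and 3617, 28018 and 20554, 21607 and 14933, and 29835 and 21941, with Cldn5, Scgb1a1, Ager and Sftpc the brightest of each list. Of 7 measured smooth muscle markers 6 were below 0, and 1 of these was at least 2-fold lower. The list had sums of 3651 and 2499, with Acta2 the brightest and Lmod1 below the floor. The 2 measured red cell markers had sums of 748 and 411, mostly from Alas2, and Hba-a1, Epb42 and Klf1 were below the floor. The part of the cell makeup of the lungs in the values of the glucose genes was not tested.

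**Figure D5:**
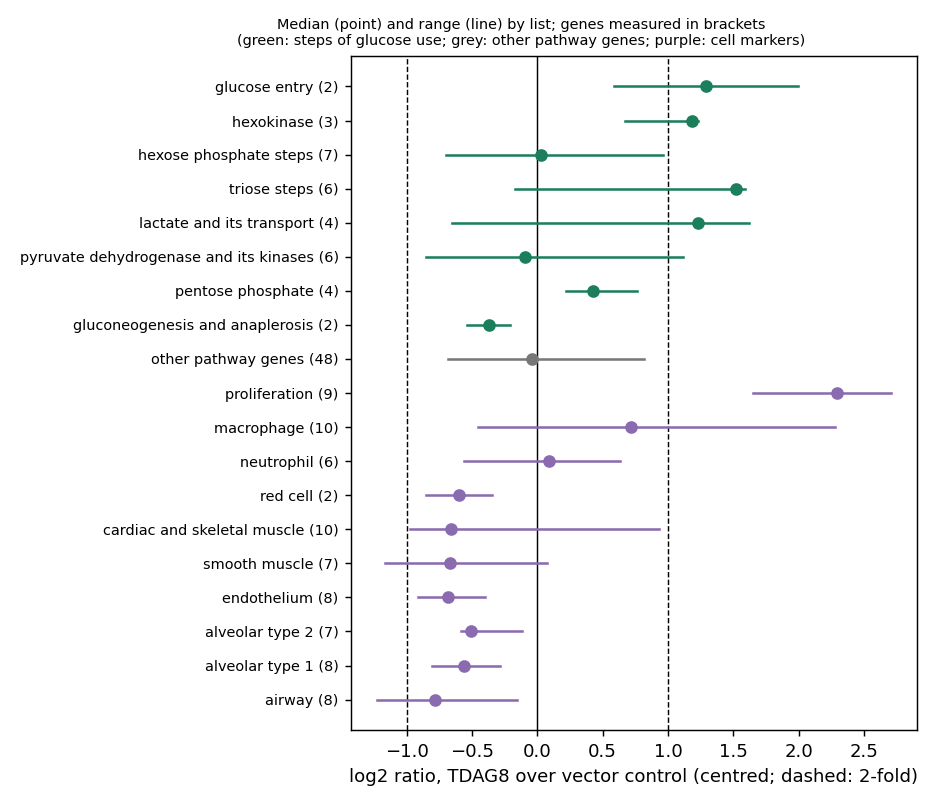
Median (point) and range (line) of the log2 ratio (TDAG8 over vector control, horizontal axis) for the steps of glucose use (green), other pathway genes (grey) and cell markers (purple), with the number of genes measured in brackets and 2-fold as dashed lines. Glucose entry, hexokinase, triose and lactate steps have medians above 1, between the proliferation markers at 2.30 and the lung cell markers, which lie below 0.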

How the data were processed

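The intensity values deposited by the authors are linear, 1 per probe set, and with 2% of probe sets left out at each end the mean of each array is 100, and how the arrays were scaled is not stated. Per the labels, pooled RNA of 10 mice, 2 µg per array, was turned into biotin-labelled cRNA from the poly(A) end. No source used here names the software. Of 45101 probe sets 64 were controls, and 34945 of the other 45037 had 1 gene symbol in the platform annotation; 34741 of those matched RefSeq (GRCm38.p6). For each gene the probe set with the highest mean log2 intensity was used. Values below the floor, the 50th percentile of each array, were raised to it, so such a ratio is a bound. Ratios were centred by -0.06 log2, the median over the 11044 genes that passed it on both arrays. A gene was counted at 2-fold. With 1 array per group no test was run, and precision is limited by the number of arrays. All members are named, as are, of other pathway genes, Gapdh and any at 2-fold. For each marker list the rule names the brightest member and those below the floor. The members and lists were chosen with earlier results of these data known. The procedure was tested on simulated data in which all planted changes were larger than 2-fold. That test does not cover genes near 2-fold, probe sets of 1 gene that disagree, or variation between pools. Python 3.11.15, pandas 2.3.3 and statsmodels 0.14.6 were used.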

Additional observations from a re-analysis of the deposited data

Results flagged for a closer look

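Gapdh, the glycolytic dehydrogenase often taken as a reference gene, had no single-gene probe set among those used, and its 3 control probe sets, which entered no comparison, were higher in the TDAG8 array. The log2 ratios were 0.89 for the 3′ probe set (2261 and 4026), 1.12 for the middle one (2104 and 4393) and 0.92 for the 5′ one (2869.6 and 5224). The 3 probe sets of Actb, the other usual reference gene, gave -0.07, -0.02 and 0.05.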

How the results depend on the processing

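The counts, medians, gene ratios and isoform differences were recomputed under 8 alternatives. A median, gene ratio or isoform difference was taken as moved when it differed by at least 0.27, the SD between probe sets of 1 gene. That limit was chosen after the data were seen, and counts were judged by their relative size instead. No paired analysis was possible because each group has 1 array, and for the same reason no replicate could be left out. Of 258 recomputed gene ratios 246 moved by less, 12 by more and 0 of the genes at 2-fold changed sign. Of the 11 genes at 2-fold 7 stayed there under each alternative that measured them. The exceptions were Ldha (down to 0.94), Hk3 (0.90), Pdk1 (0.53) and Slc16a1 (0.72), the last pair with the mean over probe sets, which includes probe sets below the floor. The count of genes at least 2-fold higher was 8 to 11 under 7 alternatives and that of lower genes 0 under all 8, and the median log2 ratio lay between 0.43 and 0.58. With only plain probe sets, which measured 22 genes, 7 were at least 2-fold higher and 15 above 0. Glucose entry was then Slc2a1 alone, at 1.89. The lactate step held Slc16a1 and Slc16a3 without Ldha and Ldhb, with a median of 1.56. The triose steps, without Tpi1 and Pgam1, had a median of 0.93, and Hk2 over Hk3 was 0.36. With the mean over probe sets the lactate step had a median of 0.87, and the differences were 1.69 for Slc2a1 over Slc2a3, 0.53 for Pfkp over Pfkm, 0.72 for Aldoa over Aldoc and 0.92 for Slc16a3 over Slc16a1. For Pdk1 they were 1.36 over Pdk2, -0.10 over Pdk3 and 1.08 over Pdk4. With the floor at the 30th percentile the gluconeogenic pair had a median of -0.75, and 1 other pathway gene, Fbp2, was at least 2-fold higher. With the floor at the 65th percentile Aldoa over Aldoc was 0.83, and with an offset Pdk1 over Pdk2 was 1.62 and Slc16a3 over Slc16a1 -0.14. Over all 11949 genes measured 646 were higher and 142 lower, or 5.41% and 1.19%. A higher floor gave 419 and 68 of 9662 (4.34% and 0.70%) and a lower floor 876 and 345 of 14857 (5.90% and 2.32%). The offset gave 435 and 31 of 11949 (3.64% and 0.26%), and the mean over probe sets 469 and 78 of 11960 (3.92% and 0.65%). Across the 8 alternatives the share of all genes at least 2-fold higher ran from 3.64% to 5.90%. What caused the moved results was not tested. Dim genes such as Fbp1, Gpr65 and Pgam2 are limited by signal near the floor.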
